A study of Homo sapiens with 7 samples.

Results

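Expression of 9 T-cell transcription factor genes was examined in 7 Hodgkin lymphoma (HL) cell lines. The genes GATA3, TBX21, EOMES, RORA, RUNX3, ZBTB7B, BCL11B, TOX and FOXP3 were read as a group because each encodes a regulator of T-cell fate, and every probe set annotated to 1 of them alone was used. On an Affymetrix array a gene is read by 1 or more probe sets, each made of short oligonucleotides that bind its transcripts. The 9 genes were read by 26 of the 54675 probe sets, between 1 (TBX21, EOMES) and 8 (RORA) per gene, out of 19775 genes with a probe set of their own. Each line was profiled once, with 1 array of total RNA, as part of a study of homeobox gene activity in HL. HL cell lines are cultures grown from the malignant Hodgkin/Reed-Sternberg cells of patients. HDLM-2 and L-540 are known as lines of T-cell origin, while KM-H2, L-1236, L-428, SUP-HD1 and U-HO1 are known as lines of B-cell origin. This division into 2 and 5 lines comes from general knowledge of the lines, since the sample labels give the name of the line only. The labels name no treatment, transgene or knockdown. Each line stands for a single culture from 1 patient, so that origin and individual line can be told apart only through the other lines of a group.

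T-cell fate is set by transcription factors that act against each other. GATA3 directs early thymic development and the type 2 helper state, the T-box factors TBX21 (T-bet) and EOMES drive type 1 helper and cytotoxic states, RORA acts in type 17 helper cells, and FOXP3 defines regulatory T-cells. BCL11B fixes T-cell commitment in the thymus, TOX is needed for CD4 lineage development, and ZBTB7B (ThPOK) and RUNX3 oppose each other in the choice between helper and cytotoxic lineages. Hodgkin/Reed-Sternberg cells mostly derive from germinal centre B-cells, lose much of the B-cell programme, and are known to express genes of other lineages, GATA3 among them.

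The promoters of GATA3, TBX21 and RUNX3 are shown because these factors are known to regulate each other in T-cells. A further reason is that GATA3 and RUNX3 were above background in every line at their brightest probe set. Each run is the 250 bases before the most upstream start in RefSeq (GRCh38.p14), 5′ to 3′ on the strand of the gene, with capitals at a RUNX motif (TGTGGT or TGCGGT, either strand). The windows are chr10:8045083-8045332 on the plus strand for GATA3, chr17:47732986-47733235 on the plus strand for TBX21 and chr1:24965011-24965260 on the minus strand for RUNX3.
GATA3: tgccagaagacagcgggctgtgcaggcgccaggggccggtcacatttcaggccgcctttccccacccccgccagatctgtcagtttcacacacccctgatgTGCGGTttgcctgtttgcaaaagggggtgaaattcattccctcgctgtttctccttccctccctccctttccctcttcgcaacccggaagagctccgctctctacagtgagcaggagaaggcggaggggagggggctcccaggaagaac
TBX21: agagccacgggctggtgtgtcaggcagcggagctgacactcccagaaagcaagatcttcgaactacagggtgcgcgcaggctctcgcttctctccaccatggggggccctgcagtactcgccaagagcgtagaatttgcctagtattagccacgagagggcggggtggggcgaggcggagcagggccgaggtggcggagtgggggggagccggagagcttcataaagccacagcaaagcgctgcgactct
RUNX3: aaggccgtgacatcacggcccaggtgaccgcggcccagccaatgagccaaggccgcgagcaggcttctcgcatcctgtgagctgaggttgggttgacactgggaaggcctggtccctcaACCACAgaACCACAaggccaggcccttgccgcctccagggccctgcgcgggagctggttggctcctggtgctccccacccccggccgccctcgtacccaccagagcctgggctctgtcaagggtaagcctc
The GATA3 window held its RUNX motif 149 bases before the start, and 3 of the 6 GATA3 windows in the table held such a motif. The RUNX3 window held a pair, 131 and 123 bases before the start. A RUNX motif was present in 16.3% of all 35116 windows of this length. A GATA motif (AGATAA or TGATAA, either strand), present in 14.6% of all windows, was found among the member windows in FOXP3 alone, 124 bases before the start. No member window held a T-box motif (GGTGTGA or GGTGTTA) or a ROR motif (AAGGTCA or TAGGTCA), which occurred in 4.01% and 4.97% of all windows. These matches describe letters and were not set against the expression values. No window was used for TOX.

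All values are log2 levels after robust multi-array averaging (RMA), and a difference of 1 is a doubling of signal. Olfactory receptor genes were assumed to be silent in these lines, which was not tested. The value that 95% of their 107 probe sets did not exceed on an array was taken as its background. It lay between 4.49 and 4.86 in 6 lines and at 5.59 in L-1236. U-HO1 stood apart by the 18S ribosomal RNA probe, at 11.12 against 5.23 to 7.06, and by the difference between 3′ and 5′ actin probe sets, at 2.11 against 0.06 to 0.54. Probe sets that read 1 gene differed from each other with an SD of 0.63 over 7283 genes, and gaps between 2 lines were read against a spread of 0.89, the SD of a difference of 2 such values. This SD was 0.70 in L-1236 and 0.81 in U-HO1, compared with 0.46 to 0.53 in the other lines. The spread comes from probe sets on the same arrays, so it holds no variation between cultures, RNA samples or repeat arrays. A gap beyond 0.89 exceeds 1 such SD and is a description rather than a test. Where a gene had several probe sets, the one brightest on average over the 7 arrays gave its level. Levels of different probe sets were not compared with each other. In RNA from whole cultures, fewer expressing cells and less RNA per cell cannot be told apart.

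The T-cell label of HDLM-2 and L-540 was checked against 20 T-cell markers, of which 19 had a probe set of their own. CD247, the zeta chain of the T-cell receptor complex, reached 9.81 in HDLM-2 and 9.90 in L-540 and stayed between 3.28 and 4.74 in the B-cell lines. CD2, a T-cell adhesion receptor, reached 8.95 and 7.28 against 2.67 to 4.86. The other chains of the CD3 complex were at or near background in both T-cell lines, with CD3D at 4.36 and 4.65, CD3E at 4.06 and 4.71 and CD3G at 3.66 and 4.37. KM-H2, a B-cell line, had the highest CD3D level, at 8.89. Both T-cell lines had 9 of the 19 markers above background, and the B-cell lines 3 to 9. The B-cell label was checked against 16 B-cell markers, of which 15 had a probe set of their own. The B-cell lines had 3 to 9 of these above background, and the T-cell lines 6 to 7. By mean, 6 of the 15 B-cell markers were higher and 9 lower in the T-cell lines. PAX5, a B-lineage factor, was at 7.81 in L-1236, 7.80 in SUP-HD1 and 8.18 in U-HO1, and at or near background in KM-H2 and L-428, at 4.86 and 4.60. It was above background in both T-cell lines, at 5.74 in HDLM-2 and 5.68 in L-540. MS4A1 (CD20) was below background in all lines. The CD3 genes and MS4A1 were named after their values were seen.

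All 9 transcription factor genes were above background in at least 1 line, and 43 of the 63 pairs of a gene and a line were above it. At their highest-mean probe sets GATA3, RUNX3 and ZBTB7B were above background in all 7 lines, a state shared by 34.6% of all genes. The number of members above background was 6 in HDLM-2 and 7 in L-540, and between 5 and 7 in the B-cell lines. Of all 19775 genes, 14495 were above background in at least 1 line, and 8609 (L-1236) to 11636 (SUP-HD1) were above it in a single line. The member counts are a description, and their difference from the share of all genes was not tested. The range over the lines was 2 or more for 8 of the 9 genes, while 50.1% of all genes above background in a line had such a range. ZBTB7B, with a range of 1.0, was the exception.

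**Figure D1:**
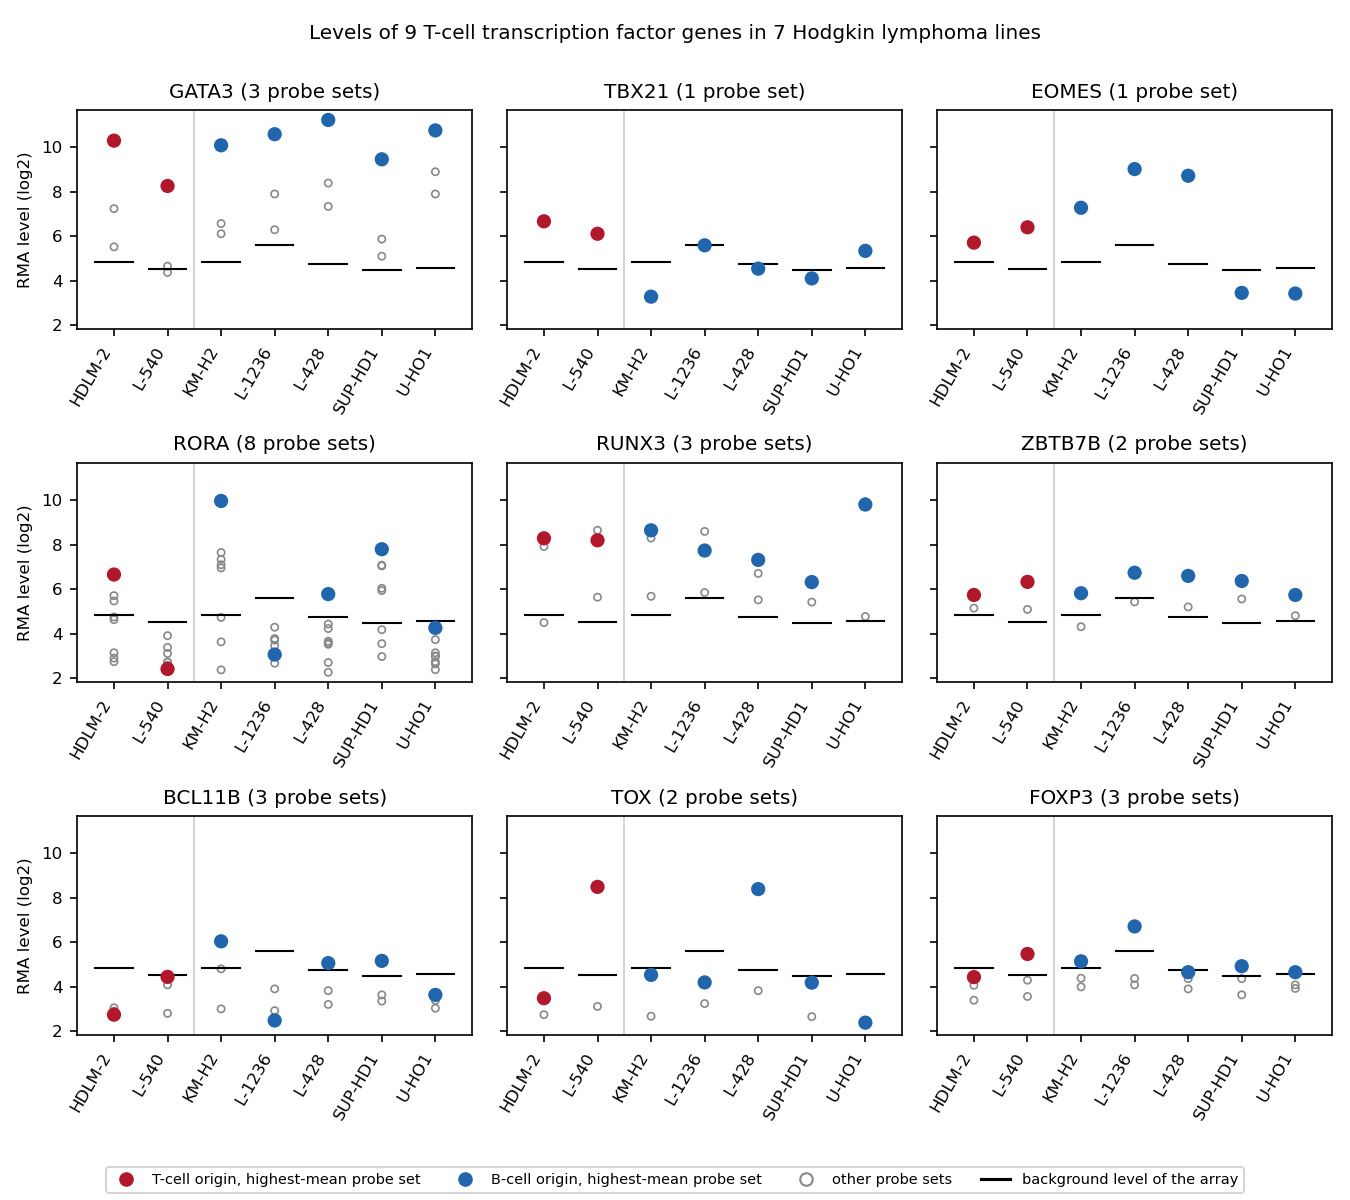
Log2 RMA level (y axis) of the 9 genes in each line (x axis), with the T-cell lines in red and the B-cell lines in blue for the highest-mean probe set, open circles for other probe sets and a black bar for the background of the array. At the highest-mean probe set GATA3 and RUNX3 sat above background in all lines, while TOX did so only in L-540 and L-428.

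GATA3 was well above background in all 7 lines at 1 probe set. At its highest-mean probe set (209604_s_at) the level was 10.30 in HDLM-2 and 8.26 in L-540, and 10.09 in KM-H2, 10.59 in L-1236, 11.23 in L-428, 9.46 in SUP-HD1 and 10.76 in U-HO1. L-540 was the lowest line and L-428 the highest, so the 2 T-cell lines did not share a place. The step from SUP-HD1 down to L-540, 1.2, exceeded the spread, whereas no other neighbours in the order differed by more than 0.63. At 209602_s_at the levels were 7.24 and 4.65 in HDLM-2 and L-540 and 6.57, 7.90, 8.39, 5.87 and 8.90 in KM-H2, L-1236, L-428, SUP-HD1 and U-HO1. At 209603_at they were 5.52 and 4.37, then 6.11, 6.29, 7.34, 5.10 and 7.90 in the same order. L-540 was lowest at all 3 probe sets, and at 209603_at it was below the background of its array. U-HO1 took the highest place from L-428 at the latter 2 probe sets. The 3 probe sets had Pearson's r of 0.88 to 0.95 with each other over the 7 lines, which share their arrays.

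The T-box genes TBX21 and EOMES differed from each other in how the lines were placed. TBX21 was at 6.67 in HDLM-2 and 6.11 in L-540, and at 3.28 in KM-H2, 5.59 in L-1236, 4.54 in L-428, 4.10 in SUP-HD1 and 5.34 in U-HO1. Both T-cell lines were above every B-cell line, although the gap from L-540 to L-1236 was 0.52 and thus within the spread. Among the B-cell lines the TBX21 signal passed background in U-HO1 alone, and in L-1236 it was at the background level. EOMES, which is important for cytotoxic and memory cells, was at 5.71 in HDLM-2 and 6.40 in L-540. The B-cell lines held both ends of the EOMES order, with 9.02 in L-1236, 8.72 in L-428 and 7.28 in KM-H2, and 3.45 in SUP-HD1 and 3.42 in U-HO1, the last pair below background. The steps from L-428 to KM-H2, 1.44, and from HDLM-2 to SUP-HD1, 2.26, exceeded the spread. Over the 7 lines TBX21 and EOMES had r = -0.03.

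RORA, a nuclear receptor, had a range of 7.56 at 226682_at, and of 3.30 when its 8 probe sets were averaged. At 226682_at it was at 6.66 in HDLM-2 and 2.41 in L-540, and at 9.97 in KM-H2, 3.06 in L-1236, 5.78 in L-428, 7.80 in SUP-HD1 and 4.26 in U-HO1. HDLM-2 was thus among the lines above background, with KM-H2, SUP-HD1 and L-428, while L-540 was the lowest of all lines and below background. KM-H2 was above SUP-HD1 by 2.17 and SUP-HD1 above HDLM-2 by 1.14, both beyond the spread at this probe set. KM-H2 and SUP-HD1 were within the spread of each other at 210426_x_at, at 6.96 and 7.08, and at 210479_s_at, at 7.10 and 7.05. The 5 RORA probe sets above background in a line had r between 0.893 and 0.996 with each other. The other 3 stayed below background in all lines.

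RUNX3, a factor of cytotoxic T-cells, was at 8.29 in HDLM-2 and 8.20 in L-540, and at 8.65 in KM-H2, 7.74 in L-1236, 7.32 in L-428, 6.32 in SUP-HD1 and 9.81 in U-HO1 at 204197_s_at. The T-cell lines lay close together in the middle of the order. U-HO1 was above KM-H2 by 1.16 and SUP-HD1 below L-428 by 1.0, both beyond the spread pooled over genes. The RUNX3 probe sets differed from each other more than the pool, with an SD of 0.84 against 0.63, so these steps are less certain. The second RUNX3 probe set, 204198_s_at, had the same mean and placed U-HO1 highest (9.93) and SUP-HD1 lowest (6.22) as well. There SUP-HD1 was within the spread of L-428 (6.71), and L-540 was second, at 8.65. The other, 234928_x_at, was above background in 6 lines and read another pattern, with r of -0.42 and -0.21 to the others. ZBTB7B, the helper lineage factor, was at 5.74 in HDLM-2 and 6.33 in L-540, and at 5.82 in KM-H2, 6.74 in L-1236, 6.60 in L-428, 6.37 in SUP-HD1 and 5.74 in U-HO1. No neighbouring lines of ZBTB7B differed beyond the spread at this probe set, 235145_at. At 205853_at ZBTB7B was above background in 5 of the 7 lines, with SUP-HD1 highest, at 5.56, and KM-H2 lowest, at 4.31. RUNX3 and ZBTB7B had r = -0.68 over the 7 lines, a value that rests on the narrow range of ZBTB7B, 1.0. The U-HO1 array, highest for RUNX3, also stood apart by its 18S and actin probe sets. A relation between the RUNX3 and ZBTB7B levels was not tested.

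BCL11B and TOX, factors of thymic development, were each found in few lines. BCL11B was at 2.74 in HDLM-2 and 4.44 in L-540, both below background, and at 6.04 in KM-H2, 2.48 in L-1236, 5.06 in L-428, 5.16 in SUP-HD1 and 3.63 in U-HO1. The 3 lines above background, KM-H2, SUP-HD1 and L-428, were of B-cell origin. The other 2 BCL11B probe sets were below background in all lines. TOX was at 3.48 in HDLM-2 and 8.49 in L-540, and at 4.53 in KM-H2, 4.19 in L-1236, 8.39 in L-428, 4.18 in SUP-HD1 and 2.38 in U-HO1. L-540 and L-428, a T-cell and a B-cell line, were above all other lines by at least 3.86 and differed from each other by 0.10. The T-cell lines were thus at opposite sides of background for TOX. This TOX pattern rests on 204529_s_at, since the second probe set was below background in all lines.

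FOXP3 was above background in 5 of the 7 lines. At 221334_s_at it was at 4.43 in HDLM-2 and 5.47 in L-540, and at 5.14 in KM-H2, 6.71 in L-1236, 4.65 in L-428, 4.92 in SUP-HD1 and 4.65 in U-HO1. L-1236 was highest, by 1.24 over L-540, and this array also had the highest background, at 5.59. The part of the raised background in the place of L-1236 was not tested. The other 2 FOXP3 probe sets stayed below background in all lines.

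The lines differed in which factors they carried. At the highest-mean probe sets both T-cell lines had GATA3, TBX21, EOMES, RUNX3 and ZBTB7B above background. They differed in RORA, above background in HDLM-2 alone, and in TOX and FOXP3, above background in L-540 alone. KM-H2 had the highest RORA and BCL11B levels, and its TBX21 level was below background, as in other B-cell lines. L-1236 was highest for EOMES, FOXP3 and ZBTB7B, and L-428 for GATA3 at 209604_s_at. The lead over the next line was within the spread for EOMES (0.30), ZBTB7B (0.14), GATA3 (0.47) and BCL11B (0.88). U-HO1 was highest for RUNX3, and its TOX level was below background, as in all lines but L-540 and L-428. EOMES was below background in both U-HO1 and SUP-HD1, which have no order there. In the U-HO1 array the 18S and actin probe sets also stood apart, and their part in its places was not tested. Across the 36 pairs of members, r over the 7 lines ran from -0.83 for TBX21 and BCL11B to 0.62 for FOXP3 and ZBTB7B. TBX21 and BCL11B were each above background in 3 lines, and never in the same line. FOXP3 and ZBTB7B were both highest in L-1236, the array with the highest background. These r values are a description of 7 arrays, and a relation between members was not tested.

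**Figure D2:**
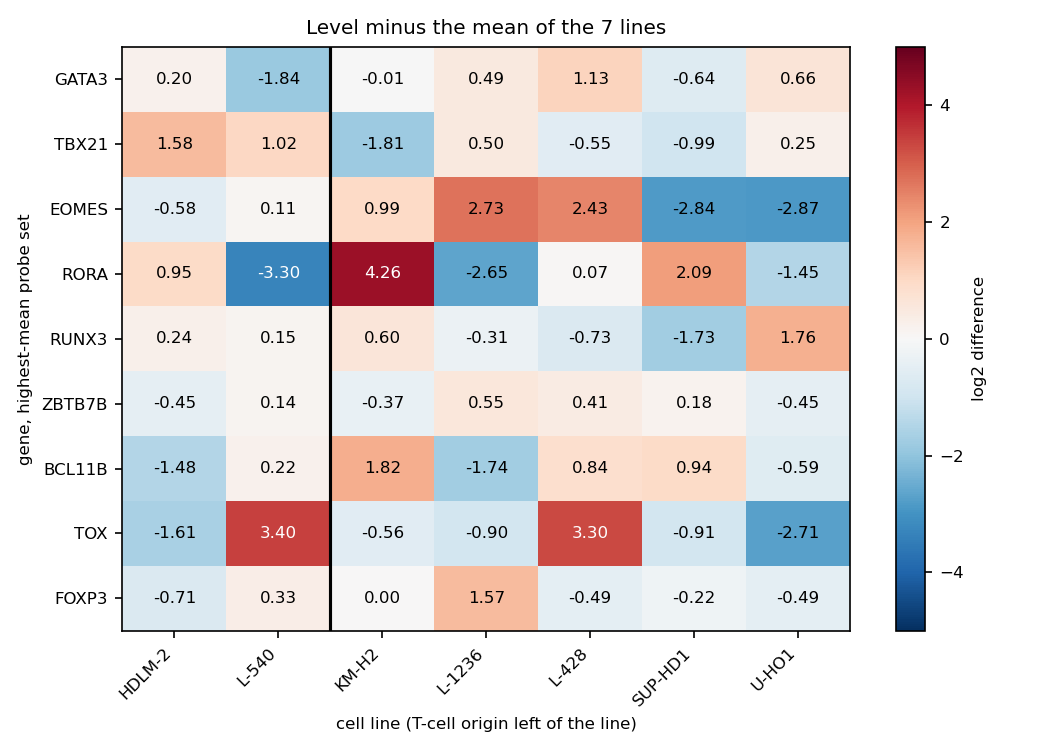
Level of each gene (rows, highest-mean probe set) in each line (columns) minus its mean over the 7 lines, in log2 units, with the T-cell lines left of the black line. HDLM-2 and L-540 had opposite signs for RORA, 0.95 and -3.30, and for TOX, -1.61 and 3.40.

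To see whether the factors follow the origin of the lines, the 2 T-cell lines were compared with the 5 B-cell lines in a limma fit over 54613 probe sets. Of the 26 member probe sets, 0 passed an adjusted p of 0.05 in limma, and all had an adjusted p of 0.9999. Of all probe sets, 0.0476% were called, 0.0403% as higher and 0.00732% as lower in the T-cell lines. At an unadjusted p under 0.05 there was 1 member probe set, TBX21, whereas 3.97% of all probe sets were that low. With so few lines the intervals are wide, as for EOMES, whose 95% confidence interval ran from -4.29 to 3.65. Even for ZBTB7B, with its narrow range, the interval ran from -1.12 to 0.68. A p above the threshold does not show that the groups are alike.

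TBX21 was at a mean of 6.39 in the T-cell lines and 4.57 in the B-cell lines, a difference of 1.82 (SE 0.63, 95% confidence interval 0.35 to 3.29, limma unadjusted p = 0.0215, adjusted p = 0.9999). It was the only member probe set at which both T-cell lines were above all B-cell lines, as were 4.66% of all probe sets. GATA3 was lower by mean in the T-cell lines, at -1.15 (SE 0.65, 95% confidence interval -2.65 to 0.36), and the groups overlapped because HDLM-2 lay within the B-cell lines. At the other GATA3 probe sets the differences were -1.58 and -1.60. RORA had a difference of -1.64 with an SE of 1.93, and TOX of 1.25 with an SE of 1.74, and in both genes the T-cell lines themselves lay far apart, by 4.25 and 5.01. BCL11B had -0.88 (SE 0.96), EOMES -0.32 (SE 1.71), RUNX3 0.28 (SE 0.84), FOXP3 -0.26 (SE 0.62) and ZBTB7B -0.22 (SE 0.39). At the other ZBTB7B probe set, 205853_at, the difference was 0.058. Both T-cell lines were below all B-cell lines at 2 member probe sets, 1 of RORA (239550_at) and 1 of FOXP3 (224211_at), and 3.56% of all probe sets were placed this way. These 2 were below background in all 7 lines.

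By mean, 20 of the 26 member probe sets and 6 of the 9 genes were lower in the T-cell lines, against 50.6% of all probe sets. Probe sets of a gene share their target, so the 8 RORA probe sets are not 8 observations. The median difference of the 9 genes was -0.26, compared with -0.006 over all genes, and it was 0.08 without HDLM-2 and 0.11 without L-1236. Without HDLM-2 the count of lower genes was 3. The difference of GATA3 was -0.13 without L-540 and -2.17 without HDLM-2, and that of BCL11B -1.73 and -0.034. TOX turned from 1.25 to -1.25 without L-540, and RORA from -1.64 to 0.49.

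**Figure D3:**
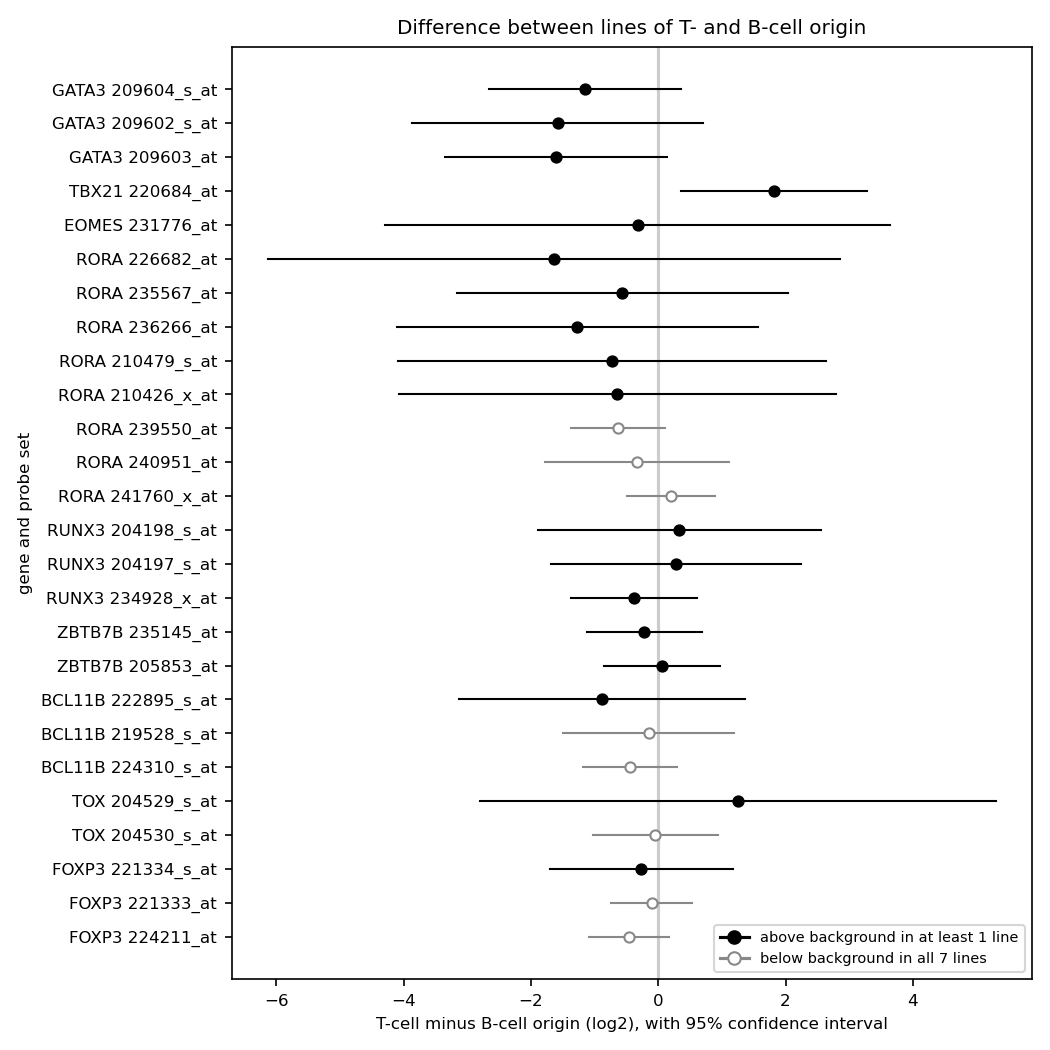
Difference between the means of T-cell and B-cell lines (x axis, log2) with the 95% confidence interval of the limma fit for the 26 member probe sets, with open grey points for those below background in all lines. The interval of TBX21, from 0.35 to 3.29, was the only interval that did not reach 0.

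Genes that work with these factors were read in the same fit, from lists that were chosen with earlier results of these data known. With 1 probe set per gene, 0.0354% of all genes were called higher and 0.00506% lower in the T-cell lines, while 4.72% lay above and 3.63% below without overlap. In the list of type 1 and cytotoxic genes, which act with TBX21 and EOMES, 1 of 16 measured genes was called higher and 0 lower, 4 were above without overlap, and the median difference was 1.52. This median was 2.25 without HDLM-2 and 0.42 without L-540. The called gene was PRF1 (perforin, the pore-forming protein of killer cells), at 11.08 in HDLM-2 and 11.34 in L-540 against 4.01 to 6.19, with a difference of 6.33 (SE 0.58, limma adjusted p = 0.0206). NKG7, a cytotoxic granule protein, was at 5.52 and 11.22 against 3.15 to 4.77. GZMB, the protease granzyme B, was at 4.75 and 12.01 against 2.94 to 4.54, so that its difference of 4.58 came from L-540, and HDLM-2 was below background. HLX, a homeobox factor of type 1 cells, was at 4.69 and 8.96 against 3.82 to 5.05, again with L-540 apart. ZEB2, named after its values were seen, was the fourth without overlap, at 6.31 and 7.46 against 5.25 to 5.91. IFNG, the type 1 cytokine, which is also named after its values were seen, was at 2.81 and 6.02 against 2.87 to 4.26.

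In the list of T-cell surface and signalling markers 1 of 19 genes was called higher and 0 lower, with 3 above and 1 below without overlap and a median of 0.04. CD247 was the called gene, with a difference of 6.05 (SE 0.43, limma adjusted p = 0.0092). CD2 had a difference of 4.14 (adjusted p = 0.2561 in limma) and SKAP1, an adaptor of T-cell receptor signalling, of 2.69 (adjusted p = 0.0673 in limma), both without overlap. THEMIS, a thymocyte signalling protein, ran across the groups, with 8.22 in HDLM-2, 2.30 in L-540 and 2.42 to 10.61 in the B-cell lines. CD7, named after its values were seen, was the marker below without overlap, at 3.66 and 4.22 against 4.23 to 5.63. The call of CD247 was lost without HDLM-2 (adjusted p = 0.0547) and without L-540 (0.0723) in limma, where its differences were 6.10 and 6.01. The call of PRF1 was lost without HDLM-2, L-540, KM-H2, L-428 or U-HO1 in turn, at adjusted p of 0.0853, 0.121, 0.055, 0.0823 and 0.0688 in limma, with differences of 6.16 to 6.46.

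Of the 16 type 2 helper genes that accompany GATA3, 0 were called, 2 were above and 1 below without overlap, and the median was 0.03. IL2RA (CD25, a chain of the interleukin 2 receptor) was at 11.35 and 10.80 in the T-cell lines and at 3.17 to 5.56 in the B-cell lines other than SUP-HD1, where it was at 9.80. NFIL3, a bZIP factor, was at 11.05 and 10.38 against 7.17 to 10.22. GFI1, a zinc finger repressor, was at 3.31 and 6.02 against 3.24 to 7.56. IL1RL1, a receptor of the interleukin 1 receptor family, was at 4.63 and 4.44 against 4.80 to 7.08. The cytokine IL13, which is a known target of GATA3 and was named after its values were seen, was at 8.56 in HDLM-2 and 6.05 in L-540, and at 4.31 in KM-H2, 6.66 in L-1236, 7.78 in L-428, 8.94 in SUP-HD1 and 4.37 in U-HO1. The highest IL13 level was in SUP-HD1, the B-cell line with the lowest GATA3 level. IL5, another cytokine of this list that was named after its values were seen, was above background in L-428 alone, at 7.18. L-428 had the highest GATA3 level at 209604_s_at. How these cytokines relate to GATA3 was not tested.

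Of 13 regulatory T-cell genes around FOXP3, 0 were called, 3 were above and 1 below without overlap, and the median was 0.32, with -0.05 without HDLM-2. Besides IL2RA, IKZF4 (Eos, a partner of FOXP3) was at 8.04 and 6.05 against 3.32 to 5.67. LRRC32 (GARP, which presents latent TGFB) was at 4.14 and 3.99 against 5.33 to 8.06. IKZF2 (Helios) was at 2.36 and 4.97 against 2.76 to 7.75. The third gene above was IL10, named after its values were seen, which was at 3.21 and 3.28 and below background in all lines. Of 8 type 17 helper genes around RORA, 0 were called and 0 lay without overlap, with a median of -0.03. IL1R1, the interleukin 1 receptor, was at 8.52 and 7.41 against 2.83 to 9.48. The other genes with the largest differences in this list, IL23R, CCR6 and IL22, differed by no more than 0.52 in size between the groups, at -0.52, 0.33 and 0.31.

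Of 20 genes of T-lineage commitment, 0 were called, 2 were above and 1 below without overlap, and the median was -0.06. SATB1, a chromatin organizer of thymocytes, was at 11.76 and 11.12 against 4.92 to 10. LEF1, a nuclear effector of WNT signalling, was at 3.39 and 3.20 against 3.63 to 10.12. ETS1 was at 8.95 and 9.94 against 2.51 to 8.98. The other gene above was RAG2, named after its values were seen, at 2.53 and 2.65, below background. Among 23 relatives of the members (GATA, T-box, ROR, RUNX, BCL11, TOX, FOXP and ZBTB7 genes), 0 were called, 0 were above and 3 below without overlap, and the median was -0.06. BCL11A, the B-lineage relative of BCL11B, was at 3.21 in HDLM-2 and 2.41 in L-540 against 7.33 to 9.70, a difference of -5.58 (SE 0.73, limma adjusted p = 0.0919). The groups thus lay apart for BCL11A and overlapped for BCL11B, and this contrast was not tested. FOXP2 was at 3.21 and 3.91 against 4.02 to 5.94, and was above background in only 2 lines. TBX3 was at 4.63 and 4.91 against 5.06 to 8.08, and was above background in 5 lines. TBX19 overlapped, at 7.68 and 5.87 against 4.53 to 6.69.

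Markers of other cell types were read beside these values. Of 15 B-cell markers 0 were called, 0 were above and 1 below without overlap (BANK1, 3.14 and 3.38 against 3.49 to 7.96), and the median was -0.14. BANK1 was above background in SUP-HD1 alone. PAX5 was at 5.74 and 5.68 against 4.60 to 8.18, POU2AF1 at 3.48 and 2.80 against 3.20 to 9.39, and CR2 at 2.81 and 3.38 against 2.70 to 10.98. Of 10 myeloid markers 0 were called and 0 lay without overlap, with a median of 0.04 and 6 genes below background in all lines. CSF1R differed by 1.27, CD14 by -0.79, CEBPA by 0.37 and ITGAM by 0.30. Of 10 Hodgkin/Reed-Sternberg cell genes 0 were called, 1 was above and 0 below without overlap, and the median was 0.51, with -0.04 without HDLM-2 and 1.72 without L-540. TNFRSF8 (CD30), the defining surface marker, was at 9.47 and 10.99 against 4.36 to 9.15, with SUP-HD1 below background. CD274 differed by 2.25, CCL22 by 1.47 and IL13RA1 by -1.57.

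**Figure D4:**
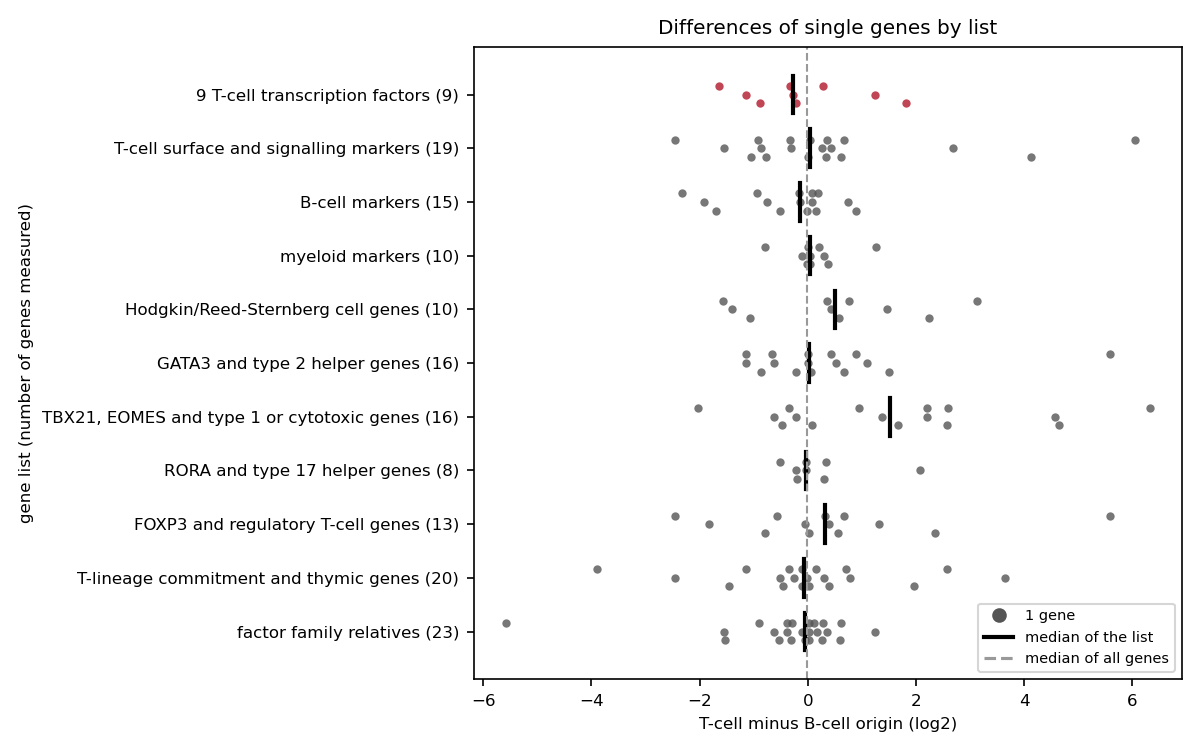
Difference between T-cell and B-cell lines (x axis, log2) of single genes (points) in the 9 transcription factors and in 10 gene lists (y axis), with a black bar at the median of each list and a dashed line at the median of all genes, -0.006. The median was 1.52 for type 1 and cytotoxic genes, or 0.42 without L-540, and -0.26 for the transcription factors.

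The genes with the most similar pattern of levels were listed for each member with a range of 2 or more, by Pearson's r over the 7 lines among 7264 genes. For GATA3 these were TENM3-AS1 (0.96), RNASET2 (0.95) and RFESD (0.94). RNASET2, a lysosomal ribonuclease, was at 5.03 in L-540 and at 7.98 to 10.81 in the other lines. For TBX21 they were CTSO (0.98), TTC7B (0.97) and ANXA1 (0.97). CTSO, a cathepsin protease, was at 7.39 in HDLM-2 and 6.14 in L-540 against 2.76 to 5.36. For TOX they were TOX-DT (0.97), SMIM3 (0.95) and CLDND1 (0.94). TOX-DT, a divergent transcript at the TOX locus, was at 5.90 in L-540 and 6.71 in L-428 and between 2.45 and 3.32 in the other lines, and it thus marked the same 2 lines as TOX. The genes were HILPDA (0.97), CDK16 (0.95) and TMEM132C (0.91) for EOMES, SELENOM (0.97), DNAAF2 (0.95) and HNRNPH3 (0.94) for RORA, and CHML (0.99), CENPN (0.96) and AGPAT5 (0.95) for BCL11B. They were ATM (0.96), MBOAT1 (0.96) and AHNAK (0.94) for RUNX3 and FMO2 (0.99), CACNA1I (0.98) and C20orf203 (0.98) for FOXP3. With 7 lines and 7264 genes to choose from, values of this size are a description of these arrays.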

How the data were processed

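Total RNA of 7 HL cell lines was hybridized to Affymetrix HG U133 Plus 2.0 arrays, 1 per line. The deposited log2 values are RMA output of the authors, that is, probe intensities after background correction and quantile normalization, summarized per probe set. The submitters' processing notes name RMA, affy and limma. Tool versions are not stated in these notes or the methods. The methods name more than 1 laboratory without assigning lines, so laboratory and line cannot be told apart. The annotation table gave exactly 1 symbol to 41097 probe sets, more than 1 to 1801 and no symbol to 11777. Gene values used the first kind only. Of these, 41043 were matched by gene identifier to the RefSeq gene table, whose symbol was then used. All value columns were used, the number not used being 0.

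Lines were compared with limma 3.58.1 in R 4.3.3 (lmFit and eBayes, without covariates, 5 residual degrees of freedom, Benjamini-Hochberg adjustment over 54613 probe sets without the 62 AFFX controls). A call needed an adjusted p under 0.05. The p-values measure the spread between lines, and precision is limited by how few arrays there are. The fit was tested on simulated data. Gene level, background and spread are as given above, and the spread was pooled over 20468 probe sets. The members, gene lists and tests were chosen with earlier results of these data known. Named genes are all members, up to 4 genes per list with the largest difference at the highest-mean probe set, and the 3 most similar genes for each member with a range of at least 2, and others are marked. Alternatives left out each line, or L-1236 and U-HO1 together, and used array weights, quantile normalization again, subtraction of array medians, a background filter, values raised to background, eBayes with a trend or robust, 1 probe set per gene, other probe set choices and the 90th or 99th percentile as background. Python 3.11.15 with pandas 2.3.3, numpy 2.4.6 and matplotlib 3.10.9 was used. Some listed genes are not reported here.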

Additional observations from a re-analysis of the deposited data

Results flagged for a closer look

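FOXP3 in L-1236 stood apart from the other B-cell lines, at 6.71 against 5.14 in KM-H2, the next highest, a gap of 0.76 of the range of these 5 lines. It drew attention by this gap to the nearest line, and 18 groups of lines were examined, of which chance marks about 1 in 20. At the 2 other FOXP3 probe sets L-1236 was at 4.37 and 4.08, below background.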

How the results depend on the processing

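The array values hold no depth. Signal over background limits the reading of weak genes, and the comparison of lines is limited by their number, 2 against 5. Of the 144 differences of single member genes under 16 alternatives, 10 changed sign and 0 passed the threshold, with limma adjusted p between 0.501 and 1. No member probe set was called under any alternative (0 in limma), and GATA3 stayed negative (-2.17 to -0.13) and TBX21 positive (1.39 to 2.42, adjusted p in limma 0.501 to 1) under all of them. Over all probe sets the 26 calls (22 higher, 4 lower) became 16 (12 higher) without L-1236 and U-HO1 together, 53 (45 and 8) with array weights, 83 (66 and 17) with values raised to background and 8 (7 and 1) with 1 probe set per gene. With each line left out in turn they numbered 16 to 28, with 12 to 23 higher and 1 to 8 lower. The lowest total came without L-428, 17 came without U-HO1, and the calls lower in the T-cell lines were 1 without L-540 and 8 without L-1236. Raising values to background moved the median difference of all probe sets to -0.17. The 6 member genes lower in the T-cell lines became 3 (without HDLM-2) to 7, with 4 without L-1236. The difference of FOXP3 turned to 0.047 without L-1236 and U-HO1 together. With each line left out it ran from -0.78 to 0.26 for FOXP3, from -1.06 to 0.34 for EOMES, from -3.76 to 0.49 for RORA, from -1.73 to -0.034 for BCL11B, from -0.14 to 0.74 for RUNX3, from -1.25 to 3.76 for TOX and from -0.51 to 0.076 for ZBTB7B. The sign turned without HDLM-2 for EOMES, FOXP3 and ZBTB7B, without L-540 for RORA and TOX, without L-1236 for EOMES and FOXP3, without L-428 for EOMES and without SUP-HD1 for RUNX3. Without HDLM-2 or L-540 the lone T-cell line was assumed to vary like the other lines. The call of PRF1 was also lost under repeated quantile normalization (adjusted p = 0.056 in limma, range over alternatives 4.15e-06 to 0.121). The 8 member genes with a range of 2 or more became 4 without probe sets named _x_at or _s_at, which leaves no probe set for BCL11B, RUNX3 and TOX, and the range of FOXP3 was then 0.46. With all probe sets of each gene averaged, the ranges were 3.30 for RORA (below that of EOMES, 5.60), 3.67 for TOX, 2.18 for RUNX3, 1.72 for BCL11B and 1.09 for FOXP3, and L-428 in place of L-540 was highest for TOX. EOMES was lowest in SUP-HD1 in place of U-HO1 after repeated quantile normalization or subtraction of array medians. Medians of gene lists with each line left out were chosen after seeing the data. The 43 pairs above background became 49 at the 90th and 37 at the 99th percentile. The cause of the changes was not tested where none is named. No paired analysis was possible because the labels carry no replicate numbers that lines share.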
